A study of Sus scrofa with 12 samples.

Results

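The genes followed here make and keep germ cells, and there are 10 of them: DDX4, DAZL, MAEL, SYCP3, FIGLA, NOBOX, LHX8, SOHLH1, SOHLH2 and TP63. They were taken by symbol from the gene table of pig ovaries, where 9 of the 10 symbols stood among 29884 gene names, and all 9 were above 0 FPKM in at least 1 ovary. SOHLH2 was not found under its symbol and is named only. Of 23564 genes above 0 FPKM, 12260 reached 1 FPKM in at least 3 of the 6 libraries, and SOHLH1 was the 1 member that did. FPKM scales the reads on a gene to the length of its transcript and to the depth of the library, which allows levels to be set side by side, but it does not correct for what else a library holds.

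The ovaries came from sows of a commercial herd, slaughtered 4 days after their delivery number 4, and the left ovary was frozen and sequenced as total RNA without ribosomal RNA. The small litter size (SLS) group had a mean of 8.48 ± 0.53 piglets per litter and the large litter size (LLS) group a mean of 16.19 ± 0.43, where the study presents its results in general as mean ± SEM. SLS held the ovaries ZD2, ZD3 and ZD12, and LLS held ZD5, ZD7 and ZD8, with 1 library per sow. Breed and age of the sows were not given in the sources used here, and they name no treatment. The question put to the data was whether the germ cell genes differ between ovaries of sows with small and large litters.

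Ovary ZD8 stood apart from the other 5 before any germ cell gene was considered. The summed level of 7 luteal cell markers was 124 FPKM in ZD8 and between 9167 and 12191 FPKM in the others, with 6 of the 7 lowest in ZD8, where 16% of all genes above 0 FPKM were lowest. The luteal marker STAR, which carries cholesterol into mitochondria, was 26.4 FPKM in ZD8 and between 2542 and 5418 FPKM elsewhere. None of the luteal markers was at 0 in ZD8. This library also had the fewest reads, 32272803, where the other 5 had 51703531 to 60903268 reads. The median of log2(FPKM + 1) over all genes above 0 FPKM was 1.74 in ZD8 and 1.02 to 1.32 in the others, while the sum of FPKM over all genes was 398442 in ZD8 and 358765 to 411283 in the others. The comparisons of the groups are therefore given with and without ZD8 below.

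DDX4 (VASA) is a helicase of germ cell granules, DAZL binds and helps to translate germ cell mRNAs, and MAEL acts in piRNA-guided silencing of transposons. SYCP3 builds the axis of meiotic chromosomes. FIGLA, SOHLH1 and SOHLH2 are basic helix-loop-helix factors, a class that binds E-boxes, and NOBOX and LHX8 are homeobox factors of the oocyte. These factors are known for the assembly and first growth of the primordial follicle, the resting unit of an oocyte and a flat layer of granulosa cells. TP63 is a transcription factor that guards the DNA of resting oocytes, and in skin it is a factor of basal epithelium.

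In 8 of the 9 members, LLS ovary ZD8 had the highest level and stood at least 4-fold above the next ovary. Among all genes above 0 FPKM, 52.4% were highest in ZD8 and 12.8% were at least 4-fold above the next ovary there. With median-of-ratios size factors from the recovered reads, a scaling chosen after the data were seen, ZD8 was still highest in all 8, beside 39.6% of all genes. At least 4-fold then held for 7 of the 8, beside 9.48% of all genes, with SYCP3 at 3.44-fold, MAEL at 4.12-fold and DDX4 at 6.09-fold above the next ovary. The ninth member, SOHLH1, had the opposite pattern, lowest in ZD8 and highest in the LLS ovaries ZD5 and ZD7. Since whole ovaries were sequenced, more germ cells, more RNA per germ cell and less RNA of other cells cannot be told apart. No member was called different between SLS and LLS with all 6 ovaries.

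**Figure D1:**
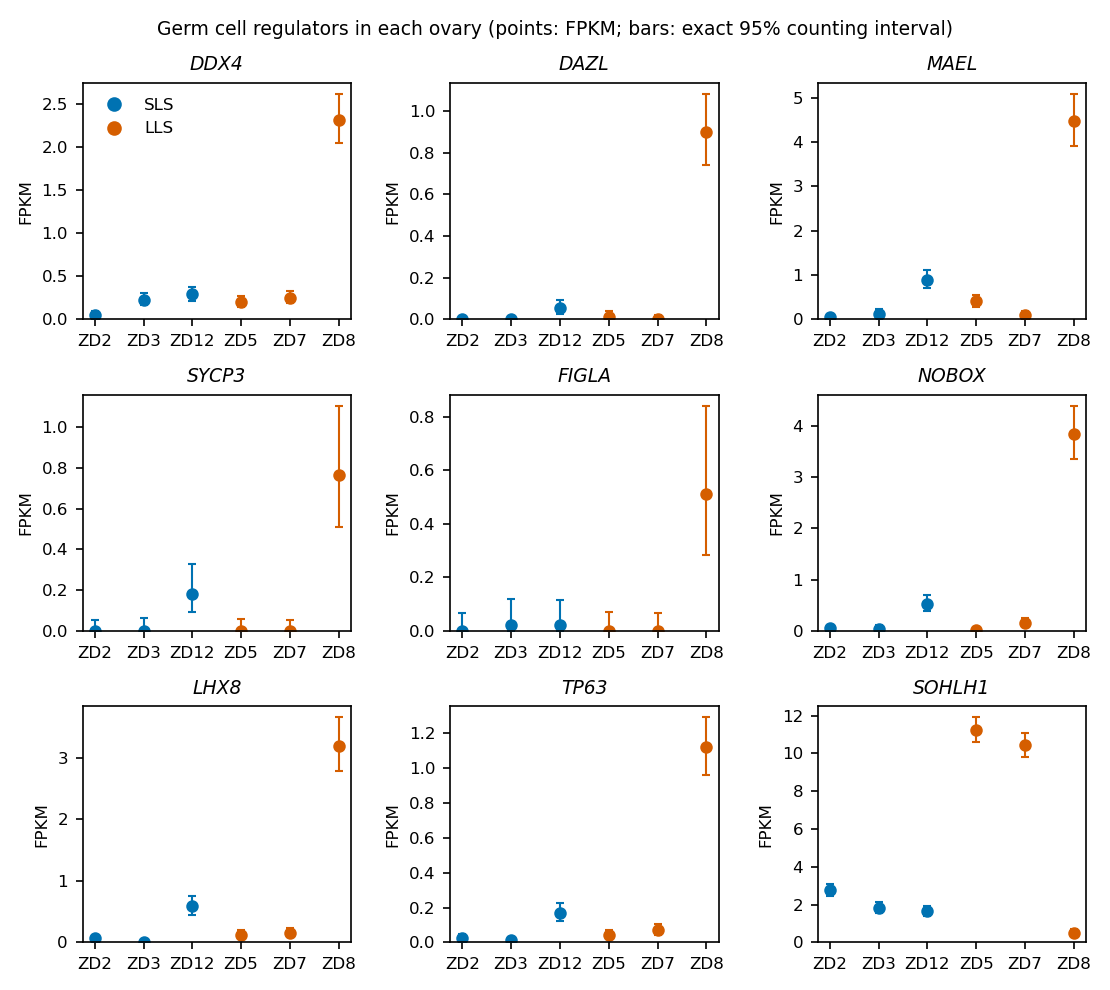
FPKM of the 9 members (vertical axes, each with its own scale from 0) in the 3 SLS and 3 LLS ovaries (horizontal axes), where points are single ovaries and bars are exact 95% counting intervals. ZD8 is the highest ovary in 8 panels and the lowest in the panel of SOHLH1.

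The stretches before 2 annotated starts are shown because FIGLA was highest in ZD8 and SOHLH1 was lowest there. Both genes encode factors of the class that binds E-boxes, and windows of 8 members were read. Each run is the 250 bases before the start on the strand of the gene, read from the RefSeq assembly Sscrofa11.1. Capitals mark the E-box CANNTG, whose reverse complement is CANNTG again, so that both strands are covered.
FIGLA, chr3:71709330-71709579, plus strand: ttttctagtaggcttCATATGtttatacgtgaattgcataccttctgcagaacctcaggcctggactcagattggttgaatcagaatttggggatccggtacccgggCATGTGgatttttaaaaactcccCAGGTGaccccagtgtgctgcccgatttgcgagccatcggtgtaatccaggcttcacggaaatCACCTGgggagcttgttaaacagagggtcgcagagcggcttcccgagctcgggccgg
SOHLH1, unplaced scaffold from 1824358 to 1824607, plus strand: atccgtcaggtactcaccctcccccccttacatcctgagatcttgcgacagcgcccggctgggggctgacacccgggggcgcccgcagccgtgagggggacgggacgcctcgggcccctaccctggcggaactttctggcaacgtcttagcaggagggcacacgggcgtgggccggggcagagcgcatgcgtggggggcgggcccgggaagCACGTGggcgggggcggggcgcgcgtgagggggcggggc
The FIGLA window held 4 E-boxes, the most of the 8 windows, while that of SOHLH1 held 1, the palindrome CACGTG. An E-box was present in 4 of the 8 windows and in 62.3% of the 20664 windows of protein-coding genes. At least 3 E-boxes were found in 10.4% of all windows and at least 4 in 3.23%.

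NOBOX held 3 E-boxes and DDX4 held 1, and none was found before DAZL, LHX8, TP63 or SYCP3. The homeobox motifs TAATTG and TAATTA, searched on both strands, were in none of the 8 windows and in 9.91% of all windows. TGATTG, searched likewise, was in none of the 8 and in 10.01% of all windows. CpG dinucleotides ranged from 0 before DAZL to 27 before SOHLH1, with a median of 11 over all windows, and the GC content of the SOHLH1 window was 74.8% against a median of 57.2%. The members therefore did not share 1 kind of start by these letters, and a match is not a bound site.

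The genes of germ cell RNA are described first. DDX4, at chr16:34879701-34983701 on the plus strand, was 0.0514, 0.226 and 0.291 FPKM in ZD2, ZD3 and ZD12, and 0.198, 0.253 and 2.31 FPKM in ZD5, ZD7 and ZD8. These values rest on 11, 41 and 54 reads in SLS and on 40, 54 and 262 reads in LLS. DDX4 was the one member of the 8 with at least 10 reads in every ovary, and the LLS ovaries ZD5 and ZD7 lay inside the range of SLS. The level in ZD8 was 7.96-fold that of ZD12, with an exact 95% counting interval from 5.92 to 10.9.

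DAZL, on the minus strand at chr13:3762896-3783848, had 0, 0 and 11 reads in the SLS ovaries and 3, 1 and 113 reads in the LLS ovaries. Its level was thus 0.898 FPKM in ZD8 and at most 0.0533 FPKM elsewhere. A count of 0 allows up to 3 reads as a one-sided limit, between 0.0126 and 0.0238 FPKM for DAZL over the 6 depths, and ZD2, ZD3, ZD5 and ZD7 were at or under this limit. DAZL in ZD8 was 16.8-fold that of ZD12 (interval 9.06 to 34.7).

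MAEL, at chr4:83990266-84040465 on the minus strand, reached the highest level of the 8 genes, 4.47 FPKM in ZD8. It was 0.0605, 0.131 and 0.894 FPKM in ZD2, ZD3 and ZD12, and 0.405 and 0.101 FPKM in ZD5 and ZD7. Among these 5 ovaries the SLS ovary ZD12 was the highest and ZD2 the lowest. The ratio of ZD8 to ZD12 was 5.004. The annotation places LOC110260301 across MAEL on the other strand, where it had no read in ZD8, and the strand setting of the authors' counting was not stated.

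SYCP3, at chr5:82492744-82501068 on the plus strand, was detected in 2 ovaries only. It had 28 reads in ZD8 (0.764 FPKM) and 11 reads in ZD12 (0.183 FPKM), and 0 reads in each of the other 4, which allows between 0.0434 and 0.0511 FPKM at their depths. The ratio of these 2 ovaries was 4.17 with an interval from 2.01 to 9.29, the smallest of the 8. CHPT1 overlaps SYCP3 on the other strand at 8.73 to 18.4 FPKM, and it was higher in ZD12 (18.4 FPKM) than in ZD8 (15.0 FPKM).

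Of the oocyte transcription factors, FIGLA was the scarcest. It lies at chr3:71709580-71723760 and had 15 reads in ZD8 (0.510 FPKM), 1 read each in ZD3 and ZD12, and 0 reads in ZD2, ZD5 and ZD7. Outside ZD8 every ovary was under the limit of 3 reads, so that a difference among these ovaries was not detectable at this depth. The ratio of ZD8 to ZD12 was 24.6 with a counting interval from 3.78 to 1035, since 1 read stands in its denominator.

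NOBOX, at chr9:113348363-113354504, was 0.0571, 0.0448 and 0.526 FPKM in the ovaries of SLS sows. ZD5, ZD7 and ZD8 had 0.0201, 0.152 and 3.84 FPKM, the last from 214 reads. The lowest of the 6 ovaries and the highest both belonged to LLS. ZD8 was 7.31-fold above ZD12.

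LHX8, at chr6:138074673-138102025 on the minus strand, had 8, 0 and 64 reads in SLS and 15, 19 and 212 reads in LLS. Its level was 3.20 FPKM in ZD8, 0.589 FPKM in ZD12 and at most 0.152 FPKM in the other 4 ovaries. LOC110261207 overlaps it on the other strand, with at most 0.217 FPKM. LHX8 in ZD8 was 5.43-fold that of ZD12.

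TP63, at chr13:127115990-127347082, also had ZD8 and ZD12 as its 2 highest ovaries. It was 1.12 FPKM in ZD8 (185 reads), 0.169 FPKM in ZD12 (46 reads) and between 0.0113 and 0.0704 FPKM in ZD2, ZD3, ZD5 and ZD7. ZD8 was 6.59-fold above ZD12. Because TP63 is also a gene of basal epithelium, 8 markers of that cell type were read beside it, of which KRT14 and KRT17 were not found by symbol. The keratin KRT5 was 1.18 FPKM in ZD8 and at most 0.0853 FPKM in the other ovaries, and SFN was 1.64 FPKM in ZD8 and at most 0.232 FPKM elsewhere. Of the 6 basal markers above 0 FPKM, 5 were highest in ZD8 and 4 were at least 4-fold above the next ovary. The summed level of these 6 was 11.8 FPKM in ZD8 and between 7.63 and 85.5 FPKM in the others, where PERP alone gave 85.2 FPKM in ZD5. The part of epithelium in the level of TP63 was not tested.

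Within ZD8 the members could be ranked by FPKM. MAEL at 4.47 (exact interval 3.92 to 5.08) and NOBOX at 3.84 (3.34 to 4.39) overlapped in their counting intervals, as did NOBOX and LHX8 at 3.20 (2.78 to 3.66). DDX4 at 2.31 (2.04 to 2.61) lay below these 3 and above TP63 at 1.12 (0.962 to 1.29). DAZL, SYCP3, FIGLA and SOHLH1 followed between 0.898 and 0.493 FPKM, with each interval overlapping that of its neighbour. These intervals cover counting error only, since 1 library has no replicate. In ZD8 5 of the 8 genes reached 1 FPKM, and 0 of the 8 did so in any other ovary.

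ZD12 was second in 7 of the 8 genes, all but FIGLA, where ZD3 and ZD12 had 1 read each. Summed over the 8 genes, the level was 0.259, 0.434 and 2.73 FPKM in ZD2, ZD3 and ZD12, and 0.804, 0.732 and 17.1 FPKM in ZD5, ZD7 and ZD8. The highest and the second ovary were thus in different litter size groups. ZD12 kept a luteal sum of 9167 FPKM.

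The make-up of these reads was also counted in each ovary. DDX4 gave 41 of the 60 reads on the 8 genes in ZD3, or 68.3% (exact Clopper-Pearson 95% interval 55.04 to 79.7). It gave 54 of 312 reads in ZD12, or 17.3% (13.3 to 21.97), and 262 of 1264 reads in ZD8, or 20.7% (18.5 to 23.1). In ZD5 and ZD7 the share was 36.4% (27.4 to 46.1) and 44.3% (35.3 to 53.5), and in ZD2 it was 28.2% (15.0 to 44.9). The shares of DDX4 were thus lowest in ZD12 and ZD8, the ovaries with the most reads on the 8 genes, and a share depends on the reads of the other members as well. These intervals cover counting error within a library and not the spread between sows, and that of ZD2 overlapped both.

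Other genes of the germ line were read from lists. Of 23 genes of germ cell RNA and the piRNA pathway above 0 FPKM, 23 were highest in ZD8 and 18 (78.3%) were at least 4-fold above the next ovary, 17 of them with a ratio and ASZ1 against 0 in all other ovaries. PIWIL1 and PIWIL2, which bind piRNAs, were 1.17 and 2.23 FPKM in ZD8, 13.6-fold and 13.3-fold above the next ovary. By mean level the leading genes were TDRD7, a tudor protein of germ granules, at 11.9 FPKM in ZD8 against at most 7.41 FPKM elsewhere, and CPEB1, which controls translation of stored oocyte mRNAs, at 17.8 against 4.37 FPKM. FKBP6 was 12.8 FPKM in ZD8 and at most 2.56 FPKM elsewhere, and RNF17 was 5.78 and at most 1.43 FPKM. ASZ1 was 0.277 FPKM in ZD8. PIWIL1, PIWIL2 and ASZ1 were named after their values were seen.

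A list of 23 oocyte products and known targets of the oocyte factors had 19 genes above 0 FPKM, of which 18 were highest in ZD8 and 12 (63.2%) were at least 4-fold above the next ovary. The oocyte growth factor GDF9 was 40.6 FPKM in ZD8 and between 5.41 and 11.3 FPKM in the others. The zona pellucida gene ZP3 was 40.4 FPKM in ZD8, 5.38 FPKM in ZD12 and between 0.179 and 2.07 FPKM in the remaining 4 ovaries. JAG1, a Notch ligand, was 32.6 FPKM in ZD8 and 18.5 to 25.5 FPKM in the others, a smaller difference. KIT, the receptor of resting and growing oocytes that other ovarian cells also express, went the other way, with 27.1 FPKM in ZD8 and 74.5 to 180 FPKM elsewhere.

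Meiotic chromosome genes other than SYCP3 did not show the pattern to the same degree. Of 23 above 0 FPKM, 15 were highest in ZD8 and 3 (13.0%) were at least 4-fold above the next ovary, beside 12.8% of all genes. MEIOB, a DNA-binding protein of meiotic recombination, was 16.7 FPKM in ZD8 and 4.26 to 8.61 FPKM in the others. MSH5, a partner in crossover formation, was 3.20 FPKM in ZD8 and at most 1.02 FPKM elsewhere, and TEX14 was 2.21 and at most 0.599 FPKM. SYCE2 of the central element was 0.902 FPKM in ZD8 and 0.872 FPKM in ZD12. The genes of early prophase SPO11, DMC1, STRA8 and SYCP1, named after their values were seen, were between 0 and 0.113 FPKM in all 6 ovaries.

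Genes that act with the members but are widely expressed are described next. Among 14 genes of the DNA damage response that TP63 serves in oocytes, 7 (50%) were highest in ZD8 and 0 were at least 4-fold above the next ovary, beside 52.4% and 12.8% of all genes. CSNK1D, CSNK1A1 and ATM, among the leading genes of this list, were 37.6, 30.0 and 16.1 FPKM in ZD8. Their highest values elsewhere were 32.3, 26.9 and 17.1 FPKM. Of the 10 E protein, ID protein and LIM partner genes above 0 FPKM, 7 (70%) were highest in ZD8, above the 52.4% of all genes. At least 4-fold above the next ovary was 1 of them (10%), near the 12.8% of all genes. TCF4, an E protein of the class with which FIGLA pairs, was 81.4 FPKM in ZD8 and at most 33.3 FPKM elsewhere, and LDB1, a LIM domain binder, was 50.9 and at most 23.6 FPKM. ID3 and ID1, which block E proteins, were 142 and 55.6 FPKM in ZD8, inside the range of the other ovaries.

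**Figure D2:**
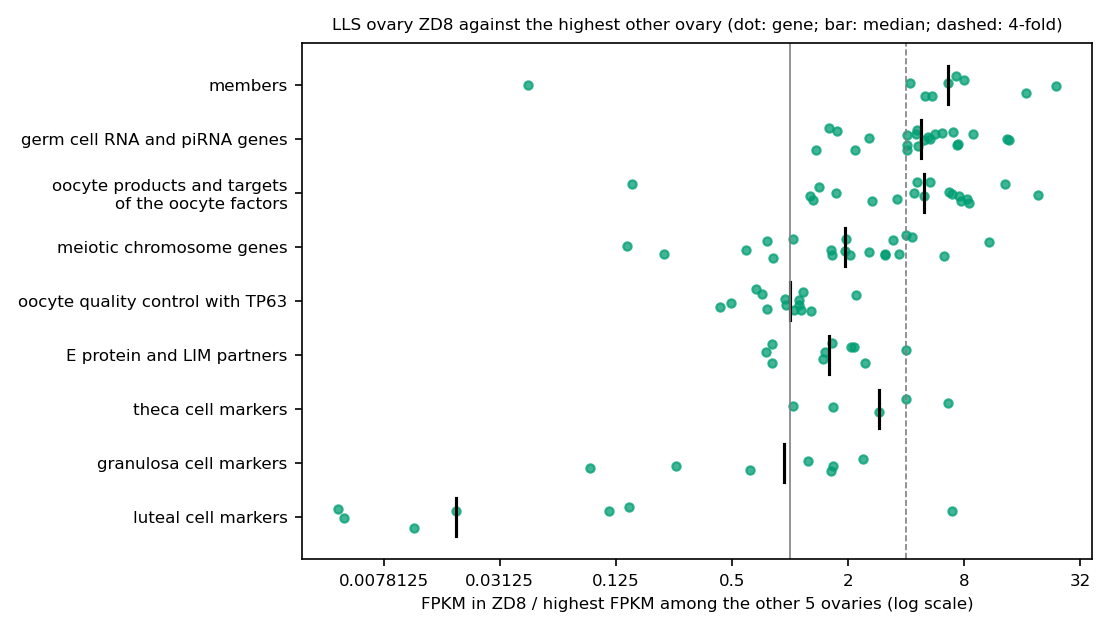
Level in ZD8 divided by the highest level among the other 5 ovaries (horizontal log axis) for each gene of 9 lists (vertical axis), with the list median as a bar and lines at equal level and at 4-fold. Genes at 0 in ZD8 are not drawn but count in the median, ASZ1 has no ratio, and the median was 6.59 for the members, 4.79 for germ cell RNA genes, 4.97 for oocyte products and 0.0185 for luteal markers.

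Markers of other ovarian cells differed between ZD8 and the other ovaries in both directions. All 5 theca markers above 0 FPKM were highest in ZD8, with a sum of 556 FPKM against 52.6 to 144 FPKM. The theca hormone INSL3 was 298 FPKM in ZD8, 45.1 FPKM in ZD12 and 2.28 to 11.6 FPKM in the rest. Of 8 granulosa markers, 4 (50%) were highest in ZD8, close to the 52.4% of all genes, and their sum was 164 FPKM in ZD8 and 188 to 865 FPKM in the others, most of it INHA in the others. The 4 highest in ZD8 were FOXL2, GATM, AMH and FSHR, at 37.8, 12.8, 12.0 and 10.8 FPKM. ZD12 was second in each, at 30.6, 7.83, 7.21 and 4.50 FPKM. INHBB was 21.6 FPKM in ZD8 and 84.6 FPKM in ZD12. The aromatase gene CYP19A1 of this list was at 0 in ZD8 and at most 0.0137 FPKM elsewhere. AMH, FSHR and CYP19A1 are outside the 4 genes of the list with the highest mean. In ZD12 the granulosa sum was the highest of the 6 ovaries, 865 FPKM. Of 5 endothelial markers 0 were highest in ZD8 and 4 were lowest there, beside 16% of all genes, with a sum of 122 FPKM against 219 to 335 FPKM. Of 7 stromal markers 3 were highest in ZD8 and 3 were lowest, with a sum of 3390 FPKM against 3775 to 9592 FPKM. The part of these cells in the levels of the members was not tested.

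The 5 genes whose pattern over the 6 ovaries was most like the mean log2(FPKM + 1) of the 9 members, among 12259 other filtered genes, were FAM120B, RNF214, ARHGAP35, ZNF467 and TSPYL2, with Pearson r from 0.994 to 0.998. TSPYL2 was 20.2 FPKM in ZD8 and 3.23 to 5.53 FPKM in the others, and FAM120B was 25.2 and 15.5 to 17.5 FPKM. The mean of the 9 includes SOHLH1, which had the opposite pattern. For the mean of the 8 genes without SOHLH1, chosen after their values were seen, the 5 were ALKBH3, ZNF143, LOC110261314, PRDM11 and BICRAL. Their r was 0.998 to 0.999. These values of r over 6 ovaries describe likeness and rest mainly on ZD8, which lay far from the rest. Among the 28 pairs of the 8 genes, r was 0.947 to 0.997 with ZD8 and 0.361 to 0.990 without it.

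SOHLH1 stood apart from the other members. It is an oocyte transcription factor that acts before and during primordial follicle formation, and lies on an unplaced scaffold from 1824608 to 1829213 on the plus strand. Its level was 2.78, 1.81 and 1.66 FPKM in ZD2, ZD3 and ZD12, and 11.2, 10.5 and 0.493 FPKM in ZD5, ZD7 and ZD8. The counts behind them were 287, 159 and 149 reads in SLS and 1099, 1080 and 27 reads in LLS. The groups overlapped, since LLS held both the 2 highest ovaries and the lowest. SOHLH1 in ZD8 was 0.297-fold that of ZD12, with a counting interval from 0.189 to 0.450.

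KCNT1, a sodium-activated potassium channel gene, is the nearest neighbour of SOHLH1, on the opposite strand with a start 2433 nt away and no overlap. It was 0.995, 0.573 and 0.826 FPKM in ZD2, ZD3 and ZD12 and 3.08, 2.31 and 0.287 FPKM in ZD5, ZD7 and ZD8. The same 2 ovaries were highest and the same ovary was lowest as for SOHLH1. The interval between both starts, positions 1822175 to 1824607 of the scaffold, has 67.4% GC, 137 CpG dinucleotides and 16 E-boxes. SOHLH1 and KCNT1 had an r of 0.983 and a rho of 0.943 over the 6 ovaries and an r of 0.9763 without ZD8, a description over points that fall into separate clusters, and 9 of 12259 filtered genes had a higher r with SOHLH1. The highest of these was ACE, at 25.8 and 25.2 FPKM in ZD5 and ZD7, 14.8 to 17.4 FPKM in SLS and 12.5 FPKM in ZD8. KCNT1 and ACE were chosen after the values of SOHLH1 were seen.

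**Figure D3:**
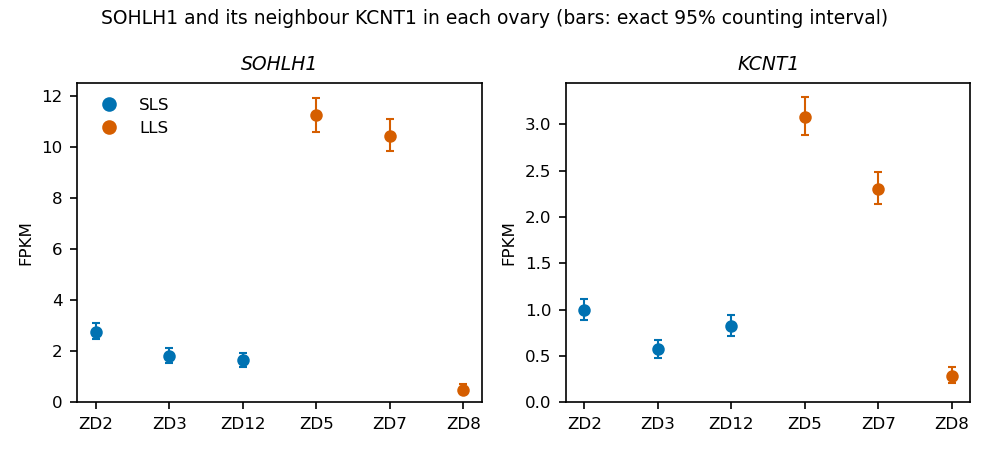
FPKM of SOHLH1 and of KCNT1 (vertical axes from 0) in the 3 SLS and 3 LLS ovaries (horizontal axes), with exact 95% counting intervals as bars. Both genes are highest in ZD5 and ZD7 (11.2 and 10.5 FPKM for SOHLH1, 3.08 and 2.31 FPKM for KCNT1) and lowest in ZD8.

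The litter size groups were then compared over all genes with limma on log2(FPKM + 1), where a call needs a Benjamini-Hochberg adjusted p under 0.05 and a log2 fold change beyond 1. In this test 0 of 12260 filtered genes were called (0%), with 216 genes at an unadjusted p under 0.05, and 0 of 23564 genes without the filter, with 416. The quasi-likelihood test of edgeR called 0 genes and DESeq2 called 13, none of them a member. SOHLH1 had a log2 fold change of 0.96 ± 0.75 (SE, n = 3 and 3) and an adjusted p of 0.999 in limma. On recovered reads its log2 fold change was 1.94 in edgeR and 1.92 in DESeq2, without a call.

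The other 8 members were tested without the filter, and all had an adjusted p of 0.993 in limma. Their log2 fold changes ran from 0.18 ± 0.17 for FIGLA to 0.63 ± 0.64 for MAEL, with DDX4 at 0.53 ± 0.41, DAZL at 0.29 ± 0.25, NOBOX at 0.59 ± 0.62, LHX8 at 0.56 ± 0.55, TP63 at 0.32 ± 0.29 and SYCP3 at 0.19 ± 0.24 (SE). The median over all genes above 0 FPKM was 0.04. Changes of genes this low are understated on the log2(FPKM + 1) scale. The range over the 8 genes was 0.54 to 1.35 with a pseudocount of 0.1, and 1.77 for SYCP3 to 3.82 for DAZL in DESeq2 on recovered reads. Median centring lowered it to 0.06 for FIGLA to 0.51 for MAEL. No member was called in these fits, where DESeq2 gave no p for DAZL and LHX8. The groups overlapped in all 9 members, where 4.77% of all genes had groups without overlap. By the exact two-sided permutation test of each gene alone, p lay between 0.4 and 1, and 3 ovaries against 3 cannot go below 0.1.

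Without ZD8 the picture of the 8 genes changed. Their log2 fold changes then lay between -0.13 ± 0.18 for NOBOX and 0.05 ± 0.10 for DDX4 (SE, 3 SLS and 2 LLS ovaries), and 7 of the 8 were below 0. The median over all genes of the same fit was also below 0, at -0.033. DDX4, DAZL, TP63 and FIGLA lay above this median and NOBOX, SYCP3, MAEL and LHX8 below it. DDX4 was the 1 gene that stayed above 0, also in edgeR with 0.42 and in DESeq2 with 0.40 on recovered reads. On that scale, which does not compress low genes, NOBOX was at -1.03 in edgeR and -1.04 in DESeq2, and none of these values was called. For FIGLA and SYCP3 no fold is given here, since ZD5 and ZD7 had 0 reads of both genes. In ZD5 and ZD7 together, NOBOX averaged 0.0862 FPKM against 0.209 ± 0.274 in SLS (SD, n = 3), and MAEL averaged 0.253 against 0.362 ± 0.462 FPKM. Both SLS means rest on ZD12, since ZD2 and ZD3 had 0.0571 and 0.0448 FPKM of NOBOX and 0.0605 and 0.131 FPKM of MAEL, values that do not lie above the averages of ZD5 and ZD7.

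For SOHLH1 the difference grew without ZD8. At 0.493 FPKM, ZD8 was the LLS ovary below all of SLS, so that leaving it out had to raise the difference. The p values without ZD8 thus leave out the ovary that goes against the difference. ZD5 and ZD7 averaged 10.8 FPKM, 5.21-fold the SLS mean of 2.08 ± 0.606 FPKM (SD, n = 3). In limma the log2 fold change was 1.96 ± 0.26 with an adjusted p of 0.0260, and SOHLH1 was among the 14 of 11985 filtered genes called higher in LLS (0.117%). Without the filter, limma gave an adjusted p of 0.406. The count tests on recovered reads, chosen after the data were seen, gave 2.50 with an adjusted p of 0.0868 in edgeR and 2.47 with an adjusted p of 2.5e-07 in DESeq2, which called 0.788% of 22835 genes higher in LLS. The call of SOHLH1 thus held in 2 of these 4 tests, and limma, edgeR and DESeq2 made no such call with the 6 ovaries. The epithelial adhesion gene EPCAM, of a list of oviduct and ciliated epithelium, was also high in ZD5 and ZD7, with 27.8 and 9.73 FPKM against 0.312, 0.339 and 1.28 FPKM in SLS and 2.31 FPKM in ZD8. The sum of the 5 genes of that list above 0 FPKM was 29.4 and 10.8 FPKM in ZD5 and ZD7, most of it EPCAM. In SLS this sum was 1.65 to 4.79 FPKM and in ZD8 10.01 FPKM. CDH1 of the list was 1.48 and 0.816 FPKM in ZD5 and ZD7, 1.16 to 3.69 FPKM in SLS and 6.10 FPKM in ZD8. OVGP1 was 0.130 and 0.271 FPKM in ZD5 and ZD7, 0.131 to 0.653 FPKM in SLS and 1.49 FPKM in ZD8. The cilium gene FOXJ1 was at 0 in ZD3, ZD5 and ZD7, and 1 gene of the list was called by limma without ZD8. The part of epithelium in the level of SOHLH1 was not tested.

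**Figure D4:**
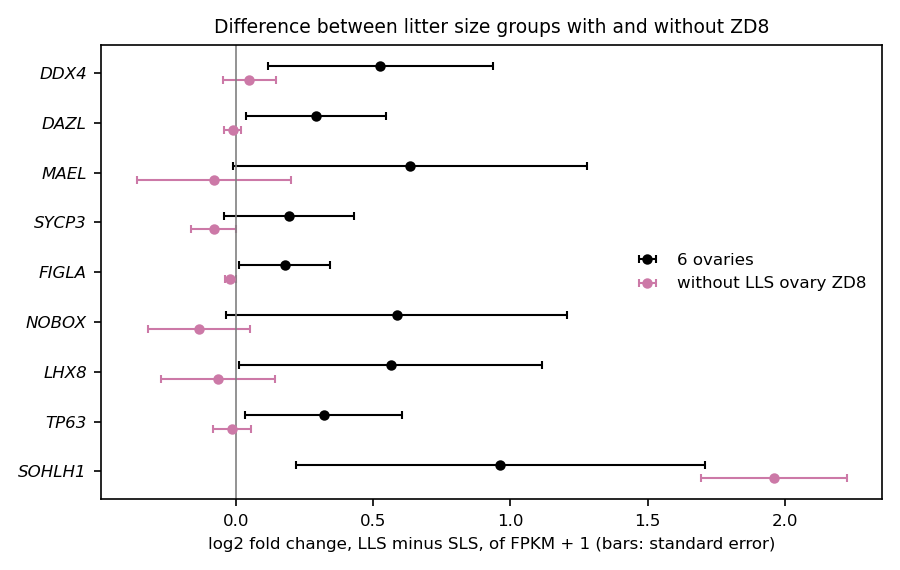
Log2 fold change of FPKM + 1 between LLS and SLS (horizontal axis, bars are standard errors of limma) for the 9 members (vertical axis) with 6 ovaries in black and without ZD8 in pink. On this scale leaving out ZD8 moves 8 genes to between -0.13 and 0.05 and SOHLH1 from 0.96 to 1.96.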

How the data were processed

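Total RNA of 3 SLS and 3 LLS ovaries was analysed. The authors trimmed the reads, mapped them with HISAT2 to Sscrofa11.1 (submitters' processing notes) and deposited FPKM values per gene. Small RNA values, deposited by the authors as reads scaled to the library total (RPM, aligner BWA), entered no result here. The counting program and its strand setting were not given in the sources used here. All 12 value columns belonged to samples of the series.

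Whole reads were recovered from FPKM with the longest annotated transcript for 23477 of 23564 genes (99.6%, tolerance 0.001 reads), at depths of 32272803 to 60903268 reads. Computation used R 4.3.3, limma 3.58.1 (trended variance), edgeR 4.0.16, DESeq2 1.42.0 and scipy 1.17.1, tested on simulated data. The filter was 1 FPKM in 3 libraries, the pseudocount 1 and the confidence level 95%. The paper's tool for genes was DESeq2 on counts, but since FPKM was deposited limma was used, with DESeq2 as an alternative. Alternatives changed pseudocount, filter, scaling, weights, tool and ovaries. Named were the 10 members, of each other list up to 4 genes with the highest mean FPKM, and the 5 genes most like the members' mean, with exceptions stated. A gene of 1 list and the window before 1 member are not reported here. Members and lists were chosen with earlier results of these data known. Each total RNA library is a different sow.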

Additional observations from a re-analysis of the deposited data

How the results depend on the processing

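With 6 ovaries, the pseudocount of 0.1, no filter, an equal sum per library, median centring and edgeR called 0 genes and 0 members. Array weights and DESeq2 each called 13 genes and 0 members. Leaving out each ovary in turn gave 0 to 20 genes and 0 to 1 members called, and only the fit without ZD8 gave any. With ZD8 left out, DESeq2 called 258 genes and 1 member, SOHLH1, where edgeR called 0 of both with 1042 genes at an unadjusted p under 0.05.

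Log2 fold changes of the members turned below 0 with array weights for FIGLA -0.0075, NOBOX -0.11, LHX8 -0.025, TP63 -0.00036 and SYCP3 -0.059. The ranges when leaving out each ovary were DAZL -0.012 to 0.45, DDX4 0.048 to 0.78, FIGLA -0.020 to 0.28, LHX8 -0.064 to 0.88, MAEL -0.080 to 1.08, NOBOX -0.13 to 0.99, SYCP3 -0.081 to 0.33, TP63 -0.015 to 0.50 and SOHLH1 0.44 to 1.96, and every value below 0 came from leaving out ZD8. With ZD8 left out, edgeR gave DDX4 0.42, NOBOX -1.03, LHX8 -0.38, TP63 -0.068 and MAEL -0.26. DESeq2 gave DDX4 0.40, DAZL -0.73, FIGLA -1.89, NOBOX -1.04, LHX8 -0.38, TP63 -0.074, SYCP3 -4.19 and MAEL -0.27 there, where FIGLA and SYCP3 had 0 reads in LLS. The adjusted p of SOHLH1 ranged from 2.5e-07 to 0.99999 and was 0.0596 with array weights, and that of the others from 0.832 to 0.99999. Array weights give each library a weight of its own, and the cause of the other changes was not tested. Fits without 1 ovary of a group assume that the 2 left vary like the others.

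Depth limits the low members, since 5 of the 9 had under 3 reads in at least 1 ovary. The call of SOHLH1 rests on 5 ovaries, without the LLS ovary that goes against it. No paired analysis was possible because each total RNA library came from a different sow and the labels carry no shared replicate numbers.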
